A study of Mus musculus with 12 samples.

Results

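Transforming growth factor β (TGF-β) was present in both the Th9 and the Treg cultures of this series and was not added to the Th2 cultures. The genes described here were higher in both cultures with TGF-β than in the culture without it. They were chosen from the measured values. In the authors' deposited log2 table, values under 4 were set to 4, and each gene name of the array was represented by the probe with the highest mean over 12 arrays. A gene was taken when its unstimulated Th9 and Treg means were both at least 6, both at least 1.5 above the Th2 mean, and less than 2 apart. Of 27745 gene names on the array, 39 met these conditions, and 37 remained after Nt5e and Itgae were left out as the rule asks. The rule also leaves out Foxp3 and Ccr8, which did not meet it in any case: Foxp3 because its Treg mean lay 2.58 above its Th9 mean, and Ccr8 because its Treg mean lay 3.79 below its Th2 mean. Of the 37 names, 35 could be given a gene symbol.

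RNA was measured on one-colour microarrays in CD4+ T cells of C57BL/6 mice, with 3 arrays for each of 4 groups. In every group, naive CD4+ cells that carried CD62L had been isolated magnetically from spleen and lymph nodes, activated through CD3 and CD28, and harvested after 5 days. Th2 cultures were given 20 ng/ml IL-4 together with an IFN-γ antibody, and Th9 cultures the same with TGF-β at 2 ng/ml added. Treg cultures had received TGF-β at 2 ng/ml and an antibody to IL-4, with IL-2 at expansion. The fourth group consisted of Th9 cultures given anti-CD3 at 1 µg/ml for 6 h at the end, called stimulated Th9 below. Th9 cultures thus differed from Th2 cultures by TGF-β, whereas Treg cultures also differed from them in IL-4, its antibody, the IFN-γ antibody and IL-2. No group lacked both TGF-β and IL-4. Nothing in the labels tells if a group's 3 arrays stand for different cultures or mice, and the p-values therefore reflect the variation among these arrays alone, possibly technical variation.

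TGF-β binds a receptor pair of the type I and type II kinases, which phosphorylate SMAD2 and SMAD3. These join SMAD4 in the nucleus and act on target genes together with other transcription factors, while SMAD7, SKI and SKIL hold the pathway back. In activated CD4+ T cells TGF-β is known for inducing Foxp3, the transcription factor of regulatory T cells, and, together with IL-4, for inducing IL-9.

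Between 24649 and 26227 probes per array were well above background, and within a group the levels of any pair of arrays had correlations of 0.988 to 0.995 over genes. The culture labels were checked with genes of each lineage. Il9 read -2.43, -1.18 and -1.47 on the Th9 arrays, while no Th2 and no Treg array detected it above background. Foxp3 read 0.78, 0.49 and 0.43 in Treg, -1.98, -2.07 and -1.90 in Th9 and was not well above background in Th2. Il4, Il5 and Gata3 had mean levels of 5.03, 1.52 and 4.77 in Th2, of 3.96, 1.54 and 5.01 in Th9, and of -6.003, -7.35 and 3.15 in Treg, where the Il5 probe was not well above background. A level here and below is the log2 signal minus the 75th percentile of its array, so that 0 is the signal of a fairly bright probe and a difference of 1 is a doubling. Levels of different genes come from different probes and were not compared with each other.

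The 12 arrays lay on 3 slides. Slide 1 held the 3 Th2 arrays and Treg array 1, slide 2 held Treg arrays 2 and 3 with stimulated Th9 arrays 1 and 2, and slide 3 held the 3 Th9 arrays with stimulated Th9 array 3. Th9 arrays never shared a slide with Th2 arrays or with Treg arrays. A fit that takes the slide as a block, called the slide-blocked fit below, therefore rests its Th9 minus Th2 and Th9 minus Treg differences on a chain through the single Treg and stimulated arrays that link the slides. Markers of other cell types also moved with the groups. The signal of the 10 B cell markers, summed on a linear scale in units of the array's 75th percentile, lay between 3.55 and 6.06 in Th2, 6.35 and 8.80 in Th9, 78.4 and 111 in Treg, and 1.14 and 4.58 in stimulated Th9. That of the 8 CD8 T cell and NK cell markers lay between 18.0 and 23.7 in Th2, 35.9 and 46.6 in Th9, 23.8 and 44.2 in Treg, and 7.46 and 33.1 in stimulated Th9. Among the stimulated arrays, array 3 stood apart: Cd8a read 2.47, 2.29 and -2.23 on stimulated arrays 1, 2 and 3, and Ms4a1 -0.25, 0.00 and -3.73. In bulk samples such as these, fewer cells of a type and less RNA per cell cannot be told apart.

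The 35 named genes lay on 16 chromosomes of the mouse assembly GRCm38.p6, and 3 pairs of them were close neighbours in its gene order. Csf2rb2 and Csf2rb, which encode β chains in the receptor family of IL-3, IL-5 and GM-CSF, are adjacent on chromosome 15. Abcb1a and Abcb4 on chromosome 5, both exporters of the ABC family, have 1 protein-coding gene between them, as have Sesn3 and Kdm4d on chromosome 9. A feature that the array design names only as A_51_P144143 shares a run of 24 bases with the probe of Csf2rb, the longest run found between any of these probes and any other gene's probe of the array when runs of at least 20 bases were sought. Both 60-base probes are shown with the shared run in capitals, and the probe of Csf2rb2 with the run of 10 bases that it shares with Csf2rb in capitals.
Csf2rb: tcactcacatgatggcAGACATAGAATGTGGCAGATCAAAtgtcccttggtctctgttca
A_51_P144143: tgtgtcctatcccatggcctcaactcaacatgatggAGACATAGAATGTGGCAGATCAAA
Csf2rb2: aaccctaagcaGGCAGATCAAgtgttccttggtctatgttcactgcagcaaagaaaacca
Csf2rb read -3.44, -2.83 and -3.59 on the Th2 arrays, -0.75, 0.25 and -1.03 on the Th9 arrays, -0.39, -0.94 and -1.32 on the Treg arrays and -1.90, -0.81 and 0.13 on the stimulated Th9 arrays. A_51_P144143 read -4.33, -3.96 and -4.85 on the Th2 arrays, -1.95, -1.19 and -2.24 on the Th9 arrays, -1.82, -2.33 and -2.73 on the Treg arrays and -3.001, -2.12 and -1.11 on the stimulated Th9 arrays. On both features array 2 was the highest Th9 array and array 3 the highest stimulated array, and Csf2rb2 shared the same pattern, with -3.45, -3.51 and -3.90 on the Th2 arrays, -0.47, 0.32 and -0.57 on the Th9 arrays, -1.40, -1.87 and -2.38 on the Treg arrays and -1.11, -0.32 and -0.01 on the stimulated Th9 arrays. Whether these 3 probes detect each other's transcripts was not tested. Csf2rb and Csf2rb2 are paralogs, so which of these genes each probe reports is uncertain. The same caution holds for Serpina3g, which belongs to a large cluster of similar serpin genes, and for Abcb1a beside Abcb1b, although their probes shared at most 7 bases in a row with the probes of those relatives.

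RefSeq promoter windows of GRCm38.p6, from 250 bases before to 50 bases after a transcription start, were available for 29 of the 35 named genes, in 33 windows. The SMAD box CAGACA, searched on both strands, was in 6 of the 33 windows (18.2%) and in 21.0% of all 32851 windows of the table. The palindromic SMAD pair GTCTAGAC was in none, against 0.213% of all windows. The AP-1 site TGANTCA was in 1 window (3.03% against 7.81%), the RUNX site TGTGGT in 6 (18.2% against 16.8%) and the GC box GGGCGG in 16 (48.5% against 35.7%). These shares are descriptions, and a motif in or missing from a short window does not place or exclude a binding site. The windows of Pkib and Cd96 are shown 5′ to 3′ because they belong to genes among the most elevated in both cultures and hold a SMAD box, which is in capitals (TGTCTG is the box on the other strand). This window of Pkib holds 4 overlapping boxes, and the other Pkib window holds none. The windows of Serpina3g, Cd38 and Tbc1d4, which were more elevated by the smaller difference from Th2, hold none either.
Pkib (chr10:57631731-57632030, plus strand): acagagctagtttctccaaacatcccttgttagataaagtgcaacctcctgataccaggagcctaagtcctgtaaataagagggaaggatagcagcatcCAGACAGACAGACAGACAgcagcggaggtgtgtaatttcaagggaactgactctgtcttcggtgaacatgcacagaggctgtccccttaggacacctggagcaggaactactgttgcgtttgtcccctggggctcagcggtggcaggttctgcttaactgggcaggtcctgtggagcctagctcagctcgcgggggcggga
Cd96 (chr16:46120199-46120498, minus strand): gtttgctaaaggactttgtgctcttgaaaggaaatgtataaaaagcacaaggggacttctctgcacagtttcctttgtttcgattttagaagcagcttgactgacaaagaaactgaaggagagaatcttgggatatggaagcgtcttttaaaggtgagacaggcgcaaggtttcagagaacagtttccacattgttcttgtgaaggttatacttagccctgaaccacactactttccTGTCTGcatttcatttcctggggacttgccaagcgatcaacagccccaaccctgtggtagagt
The other windows with the box belonged to Prss12, Abcb1a, Csf2rb2 and Pls1.

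**Figure D1:**
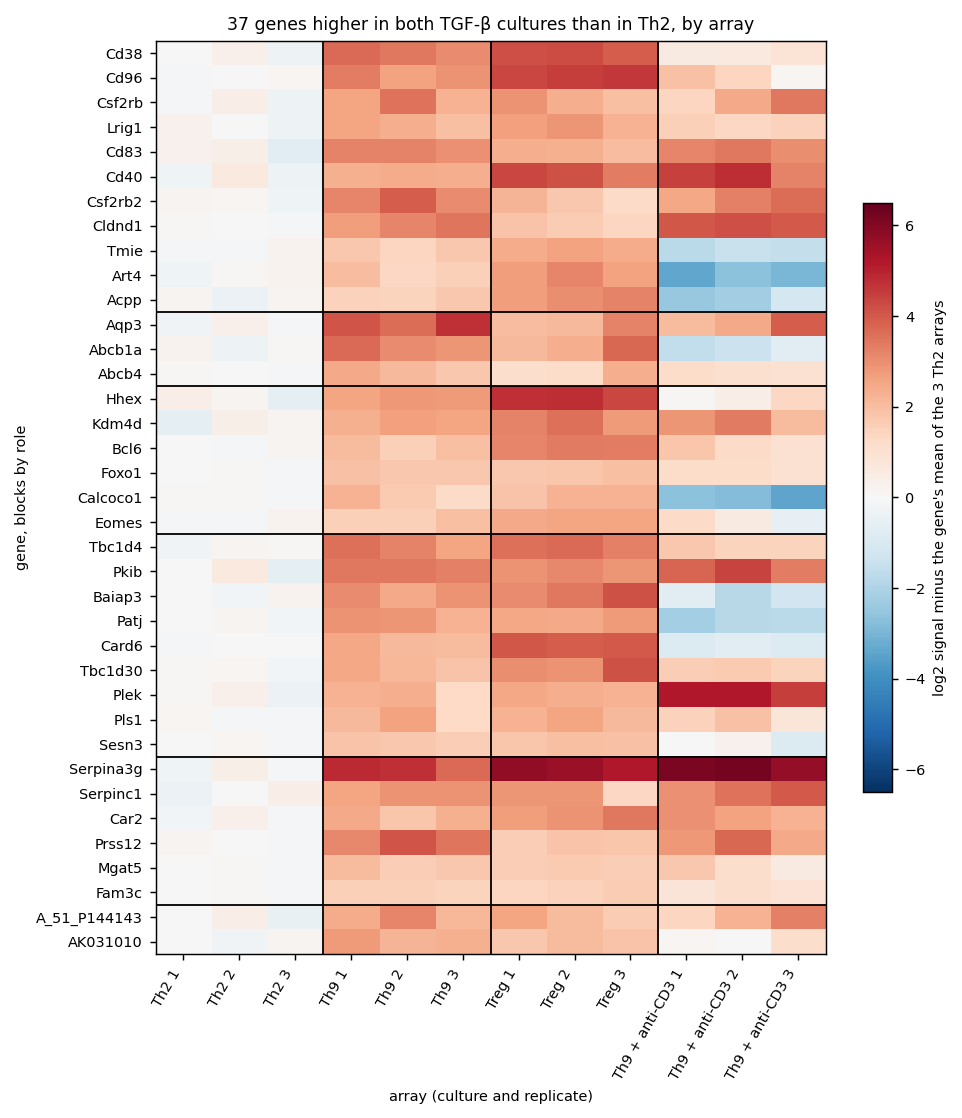
Level of each of the 37 genes on each of the 12 arrays, as log2 signal minus that gene's mean over the 3 Th2 arrays. Rows are genes in blocks by role and columns are arrays. Th9 and Treg columns are above 0 throughout, while the stimulated Th9 columns run from well below 0 (Calcoco1, Patj) to far above it (Serpina3g, Plek).

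Across the 37 genes the log2 difference from Th2 ran from 1.53 to 4.44 in Th9 (median 2.43) and from 1.51 to 5.52 in Treg (median 2.52). Both comparisons share the Th2 arrays and chose the genes, so no test is attached to them. All 37 had Th9 arrays above all Th2 arrays, as had 18.4% of the 17933 genes tested, and all 37 had Treg arrays above all Th2 arrays, as had 37.6% of the genes tested; the rule fixed this direction. All 37 were detected in Th2 cells: each probe was well above background on at least 2 of 3 Th2 arrays, and 32 were well above background on all 12. On slide 1, where Treg array 1 lay beside the Th2 arrays, its differences from the Th2 mean ran from 1.14 (Abcb4) to 5.74 (Serpina3g), and 35 of 37 reached 1.5. In the slide-blocked fit 36 genes kept a Th9 minus Th2 difference above 0, and 31 reached 1.5, with a median of 2.35, while the median standard error rose from 0.29 to 0.60. The exception was Acpp, at -0.07 with the block and 1.56 ± 0.31 without it. Blocking also moved the Th9 difference by over 1.5 times for 7 others. It was smaller for Hhex (1.78), Aqp3 (1.90), Abcb1a (1.48) and AK031010 (1.21), and larger for Cd40 (4.35), Sesn3 (2.68) and Eomes (3.08). At the threshold itself, the smaller of the differences from Th2 in the deposited table was 1.59 for Fam3c, 1.58 for Abcb4 and 1.52 for Acpp just inside it, and 1.49 for Gata1, 1.48 for Morc1 and 1.46 for Spin2c just outside.

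Surface receptors and ectoenzymes made up 11 of the 37 genes. Cd38 encodes an ectoenzyme that consumes NAD+, and read -3.83, -3.49 and -4.14 in Th2, -0.13, -0.37 and -0.77 in Th9 and 0.38, 0.42 and 0.12 in Treg. Its differences from Th2 were 3.40 ± 0.20 for Th9 and 4.13 ± 0.20 for Treg (log2 ± SE, 3 arrays per group). Cd96, a receptor of T and NK cells for the adhesion molecule CD155, read -0.81, -0.77 and -0.59 in Th2, 2.58, 1.90 and 2.22 in Th9 and 3.63, 3.79 and 3.85 in Treg, and differed by 2.96 ± 0.36 for Th9 and 4.48 ± 0.36 for Treg. All Treg arrays lay above all Th9 arrays for both genes, on other slides. In the slide-blocked fit the Th9 minus Treg difference of Cd96 went from -1.53 to -0.06. Lrig1, a brake on growth factor receptors, read -0.03, -0.24 and -0.59 in Th2, 2.30, 2.07 and 1.69 in Th9 and 2.38, 2.56 and 1.96 in Treg, with Th9 and Treg arrays overlapping.

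Some receptor genes known mainly from antigen-presenting cells were among them. Cd40, the receptor for CD40 ligand, read -5.79, -4.88 and -5.85 in Th2, -3.21, -3.12 and -3.13 in Th9 and -1.15, -1.37 and -2.17 in Treg. Cd83, an immunoglobulin-family protein of activated lymphocytes and dendritic cells, read 1.43, 1.57 and 0.50 in Th2, 4.41, 4.38 and 4.12 in Th9 and 3.54, 3.46 and 3.15 in Treg. Cd40 was higher on every Treg array than on every Th9 array, and Cd83 was higher on every Th9 array. The Th9 minus Treg difference of Cd40, -1.59, was -0.01 in the slide-blocked fit, and that of Cd83 went from 0.92 to 1.27. B cells also express Cd40, Cd83, Cd38, Bcl6, Hhex and Plek, and B cell markers moved with the Treg group. Ms4a1, which encodes CD20, read -0.45, -0.24 and -1.24 in Th2, -1.10, -0.66 and -0.28 in Th9 and 4.73, 4.71 and 4.25 in Treg. All 10 B cell markers were called higher in Treg than in Th2, where 33.6% of all genes were, and 4 of 10 in Th9 than in Th2, where 7.78% were; none was called lower, and the list's median difference from Th2 was 4.42 in Treg and 0.83 in Th9. The part of these cells in the differences of the genes above was not tested.

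**Figure D2:**
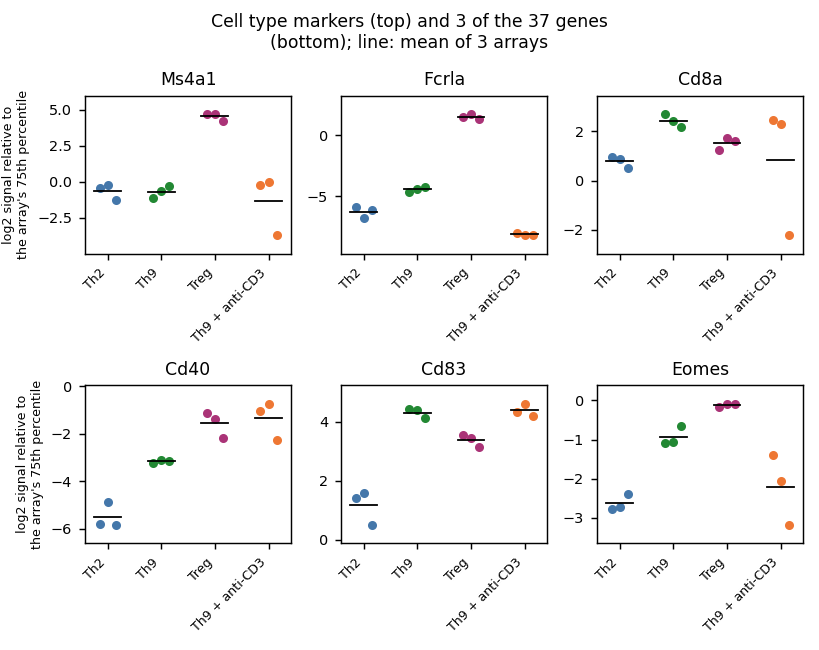
Level (log2 signal relative to the array's 75th percentile) of the B cell markers Ms4a1 and Fcrla and of Cd8a in the top row, and of Cd40, Cd83 and Eomes in the bottom row, by culture. Points are arrays and lines the mean of 3; both B cell markers are highest in Treg, while Cd83 is higher in Th9 than in Treg, and stimulated array 3 is low for Ms4a1 and Cd8a.

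The remaining surface genes were Csf2rb and Csf2rb2 (above), Cldnd1, Tmie, Art4 and Acpp. Cldnd1, a claudin-domain membrane protein, read -0.41, -0.49 and -0.53 in Th2, 2.25, 2.71 and 3.004 in Th9 and 1.39, 1.18 and 0.93 in Treg, with all Th9 arrays above all Treg arrays. Acpp encodes an acid phosphatase whose membrane form makes adenosine from AMP, and read -4.02, -4.58 and -4.07 in Th2, -2.74, -2.78 and -2.47 in Th9 and -1.50, -1.19 and -0.98 in Treg. Art4, of the ADP-ribosyltransferase family, differed by 1.62 ± 0.23 for Th9 and 2.83 ± 0.23 for Treg, and Tmie, a membrane protein of hair cells of the ear, by 1.63 ± 0.14 for Th9 and 2.48 ± 0.14 for Treg. Acpp, Art4 and Tmie were higher in Treg than in Th9 on every array.

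The 3 channels and transporters were Aqp3, Abcb1a and Abcb4. Aqp3, a channel for water, glycerol and hydrogen peroxide, read -1.43, -0.87 and -1.31 in Th2, 2.90, 2.45 and 3.54 in Th9 and 0.81, 0.88 and 2.01 in Treg. It was the gene with the second largest Th9 difference, 4.17 ± 0.48, and its Th9 arrays lay above its Treg arrays. The slide-blocked difference of Th9 was 1.90 from Th2 and -0.11 from Treg, against 1.73 from Treg without the block. Abcb1a, the drug exporter P-glycoprotein, differed by 3.21 ± 0.41 for Th9 and 2.73 ± 0.41 for Treg (slide-blocked 1.48 for Th9), and Abcb4, a phospholipid transporter, by 2.11 ± 0.29 for Th9 and 1.56 ± 0.29 for Treg.

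Of 6 genes of transcription and chromatin, Hhex had the largest difference in Treg. Hhex encodes a homeobox factor of blood cells and read -3.57, -3.85 and -4.58 in Th2, -1.44, -1.20 and -1.25 in Th9 and 0.73, 0.78 and 0.34 in Treg. Its Treg arrays stood 4.62 above Th2 and its Th9 arrays 2.70. Kdm4d, a histone demethylase listed on the array as Jmjd2d, read -4.73, -3.74 and -3.93 in Th2, -1.80, -1.47 and -1.59 in Th9 and -0.91, -0.54 and -1.36 in Treg. Bcl6, the transcriptional repressor that directs follicular helper T cells and germinal centre B cells, differed by 1.85 ± 0.21 for Th9 and 3.29 ± 0.21 for Treg. Foxo1, a factor that maintains genes of naive and resting T cells, was nearly level between the cultures with TGF-β, at 1.80 ± 0.10 for Th9 and 1.83 ± 0.10 for Treg. Calcoco1, a coiled-coil coactivator, differed by 1.73 ± 0.26 for Th9 and 2.13 ± 0.26 for Treg.

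Eomes, the T-box factor of CD8 T cells and NK cells, was the only one of the 37 on a cell type marker list. It read -2.77, -2.73 and -2.39 in Th2, -1.10, -1.06 and -0.65 in Th9 and -0.17, -0.09 and -0.08 in Treg, with Treg arrays above Th9 arrays and Th9 arrays above Th2 arrays. The order of Th9 and Treg turned with the slide block, from a Th9 minus Treg difference of -0.82 to 0.61. Of the 7 CD8 and NK markers tested, 2 were called higher and none lower in Th9 than in Th2, and 2 higher and 3 lower in Treg than in Th2, with medians of 1.08 and 0.02. Eomes was among those higher in each. Over all genes, 7.78% were called higher and 9.29% lower in Th9, and 33.6% higher and 29.4% lower in Treg. Cd8a differed from Th2 by 1.64 ± 0.96 in Th9 and 0.72 ± 0.96 in Treg, neither called (adjusted p = 0.276 and 0.534), although Th9 arrays did not overlap Th2 arrays. The part of CD8 or NK cells in the Eomes and Cd96 differences was not tested.

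Signalling, trafficking and cytoskeletal genes numbered 9. Tbc1d4, a Rab regulator known for the control of glucose transporter traffic, read -5.06, -4.65 and -4.77 in Th2, -1.25, -1.61 and -2.27 in Th9 and -1.22, -1.16 and -1.54 in Treg and differed by 3.12 ± 0.23 for Th9 and 3.52 ± 0.23 for Treg. Pkib, an inhibitor of cAMP-dependent protein kinase, read -3.31, -2.70 and -3.94 in Th2, 0.11, 0.13 and -0.02 in Th9 and -0.40, -0.20 and -0.46 in Treg and differed by 3.39 ± 0.31 for Th9 and 2.97 ± 0.31 for Treg. Baiap3, of a family that primes vesicles for release, read -5.18, -5.35 and -4.94 in Th2, -2.10, -2.69 and -2.25 in Th9 and -2.09, -1.73 and -1.03 in Treg. Pkib was higher in Th9 than in Treg on every array, Baiap3 was lower, and Tbc1d4 overlapped.

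Patj, a polarity scaffold with PDZ domains that the array lists as Inadl, read -0.58, -0.43 and -0.77 in Th2, 2.33, 2.27 and 1.65 in Th9 and 1.91, 1.89 and 2.18 in Treg. It had 3 probes, shown here because they did not give the same answer.
Patj probe 1: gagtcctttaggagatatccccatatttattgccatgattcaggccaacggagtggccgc
Patj probe 2: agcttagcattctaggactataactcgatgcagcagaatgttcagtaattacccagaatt
Patj probe 3: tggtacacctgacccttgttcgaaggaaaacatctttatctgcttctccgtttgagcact
The log2 differences from Th2 were 2.67 in Th9 and 2.58 in Treg for probe 1, which represented the gene, 3.31 and 4.11 for probe 2, and 0.05 and 0.29 for probe 3. All 3 were well above background on at least 11 arrays. Over all genes with more than 1 probe (16 of the 37), 20 of 24 other probes were well above background on at least 3 arrays. For all 20, both differences from Th2 were above 0, and for 10 both reached 1.5. Arrays of Th9 and Treg alone could meet this filter, which favours that sign: other probes of Hhex and Csf2rb were detected on 5 arrays. Of the probes that the filter left out, 1 of Acpp differed by -0.42 in Th9 and -0.45 in Treg. Those of Tbc1d4, Mgat5 and Abcb4 were above 0 in both. Apart from Patj, other probes that gave much smaller differences in Th9 and Treg were those of Serpinc1 (0.76 and 0.54), Csf2rb (0.37 and 0.34 for 1 probe), Acpp (0.03 and 1.06) and Sesn3 (0.55 and 1.63 for 1 probe, 1.26 and 0.55 for the other). The differences given for these genes are those of the brightest probe. Brightness was the mean over 12 arrays, most of them from cultures with TGF-β, so this choice favours probes that are high there. On the Th2 arrays these other probes of Csf2rb and Serpinc1 were brighter than the chosen ones.

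Of the other signalling genes, Card6, a CARD-domain protein, differed by 2.24 ± 0.12 for Th9 and 3.995 ± 0.12 for Treg; it read 0.31, 0.40 and 0.39 in Th2, 2.89, 2.50 and 2.44 in Th9 and 4.38, 4.33 and 4.38 in Treg. Tbc1d30, another Rab regulator, differed by 2.18 ± 0.28 for Th9 and 3.36 ± 0.28 for Treg. Plek, a substrate of protein kinase C, differed by 1.99 ± 0.30 for Th9 and 2.38 ± 0.30 for Treg, and Pls1, an actin-bundling plastin, by 1.99 ± 0.33 for Th9 and 2.31 ± 0.33 for Treg. Sesn3, a sestrin that restrains mTORC1, differed by 1.73 ± 0.24 for Th9 and 1.88 ± 0.24 for Treg.

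Serpina3g, an inhibitor of cathepsins in activated T cells, had the largest difference in both cultures. It read -0.90, -0.23 and -0.72 in Th2, 4.22, 4.15 and 3.08 in Th9 and 5.12, 4.98 and 4.60 in Treg, and its differences of 4.44 ± 0.30 for Th9 and 5.52 ± 0.30 for Treg correspond to 21.6-fold and 45.8-fold. Every Treg array lay above every Th9 array, and every Th9 array above every Th2 array. Its Th9 minus Treg difference was -1.08, and -0.51 in the slide-blocked fit. Prss12, the serine protease neurotrypsin, had the larger difference in Th9, at 3.57 ± 0.31 for Th9 and 1.75 ± 0.31 for Treg. Serpinc1 (antithrombin) differed by 2.79 ± 0.41 for Th9 and 2.37 ± 0.41 for Treg, Car2 (carbonic anhydrase) by 2.18 ± 0.25 for Th9 and 3.03 ± 0.25 for Treg and Mgat5, which branches N-glycans, by 1.80 ± 0.24 for Th9 and 1.64 ± 0.24 for Treg. Fam3c, a secreted cytokine-like protein, had the smallest difference in both, at 1.53 ± 0.10 for Th9 and 1.51 ± 0.10 for Treg, with arrays that did not overlap Th2. The feature named only as AK031010 differed by 2.43 ± 0.27 for Th9 and 1.89 ± 0.27 for Treg.

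**Figure D3:**
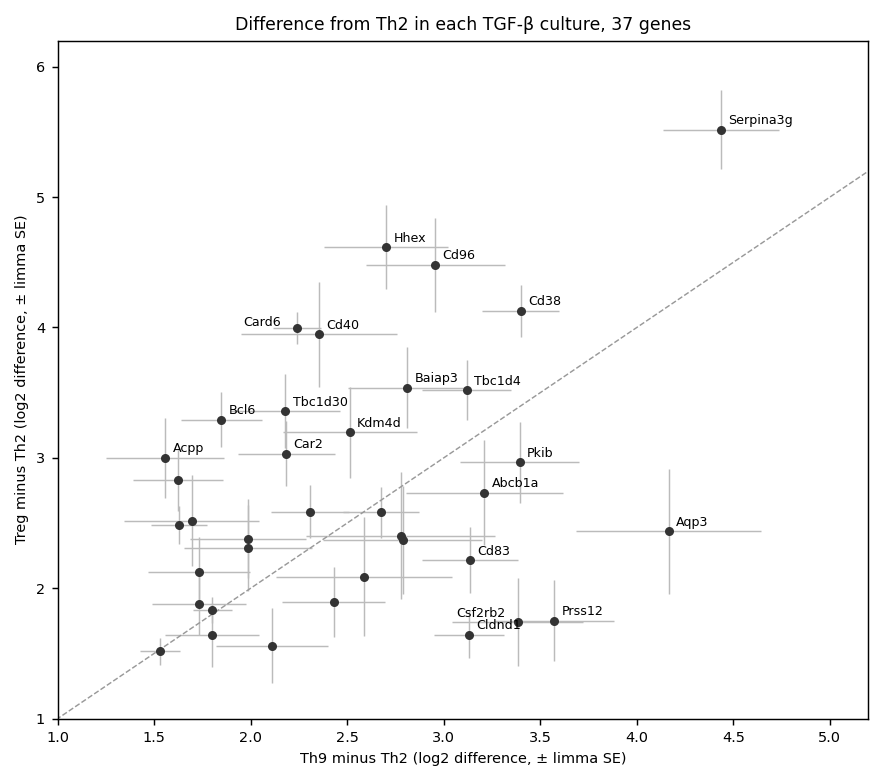
Log2 difference from Th2 in Th9 (x axis) and in Treg (y axis) for the 37 genes, with limma standard errors as bars. Both differences use the same Th2 arrays; the dashed line marks equal differences, with Aqp3, Prss12, Csf2rb2 and Cldnd1 on the Th9 side and Hhex, Card6, Cd40 and Cd96 on the Treg side.

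Between the cultures with TGF-β, 22 of the 37 genes had the higher mean in Treg and 15 in Th9, with a median Th9 minus Treg difference of -0.32. Treg arrays lay above all Th9 arrays for 15 genes, as for 38.5% of the genes tested, and below all of them for 7, as for 31.0% of the genes tested. The rule kept only genes less than 2 apart, so these are descriptions. The 7 with higher Th9 arrays were Pkib, Aqp3, Cd83, Prss12, Csf2rb2, Cldnd1 and AK031010. The 15 with higher Treg arrays were Serpina3g, Cd38, Cd96, Baiap3, Hhex, Kdm4d, Card6, Car2, Tbc1d30, Cd40, Bcl6, Eomes, Tmie, Art4 and Acpp. Since Th9 and Treg arrays shared no slide, culture and slide are confounded here except through the linking arrays. Among genes with non-overlapping arrays, the slide-blocked fit turned the sign of the Th9 minus Treg difference for Aqp3 (-0.11) and AK031010 (0.54 to -0.56). The same held for Kdm4d (-0.68 to 0.40) and Eomes (0.61), and little was left of the difference for Cd96 (-0.06) and Cd40 (-0.01). The sign also turned for genes with overlapping arrays, among them Sesn3 (-0.15 to 0.87) and Csf2rb (0.37 to -0.86). In this fit the slide of the Th9 arrays is tied to the others only through stimulated array 3, which stood apart for Cd8a and Ms4a1. Whether the slide or that array moved these differences was not tested.

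Most of these genes were lower in Th9 cultures that had been given anti-CD3 again. The thresholds of the rule did not use the stimulated arrays, so this comparison was tested. They did use the unstimulated Th9 arrays, on which the genes had been selected as high. Such a selection by itself favours lower values on other arrays, and its part in the falls was not tested. The choice of the brightest probe used all 12 arrays, the stimulated ones included. At 6 h after anti-CD3, 21 of 37 genes fell and 4 rose, and 12 did not pass the test (limma, Benjamini-Hochberg adjusted p under 0.05 over 17933 genes). Of all genes tested, 30.7% fell and 33.2% rose. The genes had a median stimulated minus unstimulated difference of -0.68, against 0.02 over all genes tested, and 17 fell by at least 1. Stimulated arrays lay below all unstimulated Th9 arrays for 20 genes (33.0% of the genes tested) and above them for 5 (35.5%). On slide 3, which held the 3 Th9 arrays and stimulated array 3, all 21 genes that fell were lower on the stimulated array. All 4 that rose were higher there, and the median over the 37 was -1.10. Array 3 also contributed to the calls, so this is not a separate check.

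The deepest falls on the processed signal were those of Calcoco1, Art4, Patj, Abcb1a, Baiap3 and Acpp. Their order and size depended on how background was handled. With normexp background correction and an offset of 50, which compresses dim signals, all 6 were still called lower, but the differences were -2.14 for Calcoco1, -1.80 for Art4, -1.28 for Abcb1a, -1.39 for Baiap3 and -0.93 for Acpp. Patj at -3.996, Card6 at -2.88 and Tmie at -2.63 then fell most. Calcoco1 read -2.79, -2.78 and -3.01 on the Th2 arrays, -0.58, -1.17 and -1.64 on the Th9 arrays, -1.003, -0.60 and -0.59 on the Treg arrays and -5.52, -5.67 and -6.26 on the stimulated Th9 arrays. On the log2 scale it fell by 4.69 ± 0.26 (adjusted p = 1.79e-07), from above to well below its Th2 arrays. Art4, Abcb1a and Baiap3 were not well above background on any stimulated array, so their folds are bounds on the processed signal, and do not hold under normexp: the mean of the Th9 arrays was set against the dim arrays at the lowest signal of any detected probe or at their own signal, whichever was higher.

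Art4 read -1.16, -1.83 and -1.63 on the Th9 arrays and -6.52, -5.83 and -6.11 on the stimulated arrays, at least 20.1-fold lower (adjusted p = 1.06e-07). Abcb1a went from -1.93, -2.52 and -2.74 to -7.22, -7.02 and -6.34, at least 11.4-fold lower (adjusted p = 3.54e-06). Baiap3 went from -2.10, -2.69 and -2.25 to -5.90, -6.95 and -6.42, at least 11.8-fold lower (adjusted p = 9.67e-07). No stimulated array came near an unstimulated one for these genes. Patj fell by 4.59 ± 0.20 (adjusted p = 6.45e-08), from 2.33, 2.27 and 1.65 to -2.79, -2.41 and -2.33. Acpp fell by 3.52 ± 0.31 (adjusted p = 2.61e-06), from -2.74, -2.78 and -2.47 to -6.70, -6.47 and -5.37, with 1 stimulated array well above background.

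Stimulated arrays of 8 of the 37 genes lay below all 9 other arrays, Th2 included: Calcoco1, Art4, Patj, Abcb1a, Baiap3, Acpp, Tmie and Card6. Of all genes tested, 17.8% did so. Tmie fell by 3.22 ± 0.14 (adjusted p = 7.48e-08) and Card6 fell by 3.05 ± 0.12 (adjusted p = 5.38e-08). For Card6, stimulated arrays read -0.53, -0.30 and -0.50 against 0.31, 0.40 and 0.39 in Th2. For a further 5 genes, Cd96, Hhex, Sesn3, Eomes and AK031010, stimulated arrays overlapped the Th2 arrays. The overlap was partial: stimulated arrays 1 and 2 of Cd96 and Eomes lay above all Th2 arrays, and array 3 did not. The other 24 stayed above all Th2 arrays after stimulation, where 35.3% of all genes tested lay above and 32.2% below. The rule had chosen the genes as higher in Th9 than on these same Th2 arrays, which favours this count, so it is a description.

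**Figure D4:**
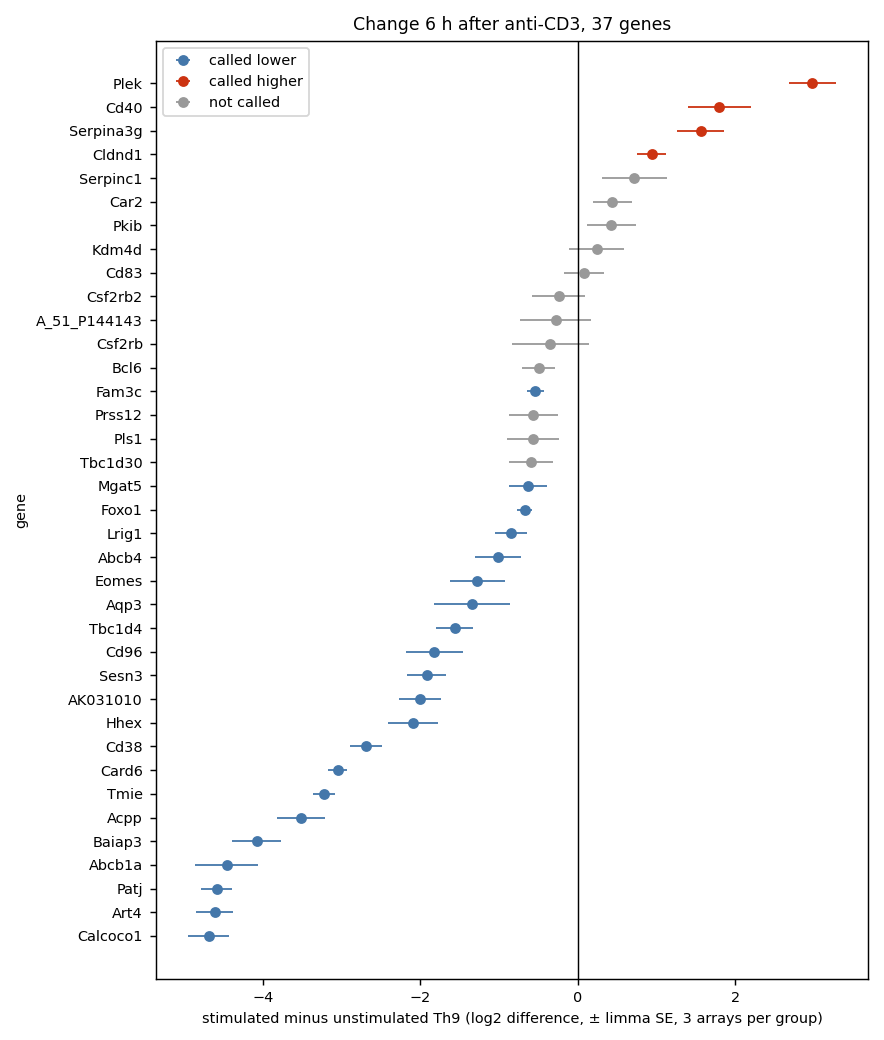
Stimulated minus unstimulated Th9 log2 difference of each of the 37 genes, with the limma standard error as bar (3 arrays per group). Colours mark the test: 21 genes were called lower, 4 higher and 12 were not called, from Calcoco1 at -4.69 to Plek at 2.98.

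Plek, Cd40, Serpina3g and Cldnd1 rose. Plek read -1.50, -1.25 and -1.95 on the Th2 arrays, 0.71, 0.81 and -0.26 on the Th9 arrays, 0.95, 0.78 and 0.71 on the Treg arrays and 3.63, 3.66 and 2.90 on the stimulated Th9 arrays, an increase of 2.98 ± 0.30 (adjusted p = 7.78e-06), or 7.89-fold. Serpina3g rose from 4.22, 4.15 and 3.08 to 5.48, 5.58 and 5.07, by 1.56 ± 0.30 (adjusted p = 0.000897), and Cldnd1 from 2.25, 2.71 and 3.004 to 3.54, 3.73 and 3.50, by 0.94 ± 0.18 (adjusted p = 0.000902). Plek, Cldnd1 and Serpinc1 had all stimulated arrays above all 9 other arrays, as had 22.9% of all genes tested. Serpinc1 read -1.24, -0.67 and -0.19 after stimulation against -1.66, -1.28 and -1.31 before, a difference of 0.72 ± 0.41 that did not pass the test (adjusted p = 0.152). Cd40 rose by 1.80 ± 0.40 (adjusted p = 0.00239), from -3.21, -3.12 and -3.13 to -1.06, -0.73 and -2.27. Stimulated array 3 was the lowest of the 3, and in the slide-blocked fit, which leaves the comparison within slide 3, the Cd40 difference was 0.89 and no longer passed (adjusted p = 0.0996).

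By role, 6 of 11 surface genes fell and 2 rose, against 30.7% and 33.2% of all genes tested. Cd38 fell by 2.69 ± 0.20 (adjusted p = 8.25e-07), from -0.13, -0.37 and -0.77 to -3.25, -3.17 and -2.92, just above its Th2 arrays. Cd96 fell by 1.82 ± 0.36 (adjusted p = 0.00105), with stimulated arrays at 1.16, 0.68 and -0.61. The lowest of these was array 3, the one with the low Cd8a level, and the part of CD8 T cells or NK cells in this fall was not tested. On slide 3 alone the Cd96 difference was -2.85. Lrig1 fell by 0.85 ± 0.20 (adjusted p = 0.00359), a call lost in the slide-blocked fit (-0.81, adjusted p = 0.0592). Cd83, Csf2rb and Csf2rb2 did not pass, at 0.08 ± 0.25, -0.35 ± 0.49 and -0.24 ± 0.34 (adjusted p = 0.796, 0.559 and 0.55).

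All 3 channels and transporters were called lower, as were 30.7% of all genes tested. Abcb4 fell by 1.02 ± 0.29 (adjusted p = 0.00981). The call of Aqp3 depended on the setting: its stimulated arrays read 0.87, 1.28 and 2.71 against 2.90, 2.45 and 3.54 before, so the groups overlapped, with a difference of -1.34 ± 0.48 (adjusted p = 0.0297). Blocking on slide gave -0.25 (adjusted p = 0.703). It also did not pass without Th9 array 1 (-1.37), Th9 array 3 (-1.05), stimulated array 1 (-0.97) or stimulated array 2 (-1.17).

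Among genes of transcription and chromatin, 4 of 6 fell and none rose, where 30.7% of all genes tested fell and 33.2% rose. Foxo1 read 3.90, 3.89 and 3.69 after stimulation against 4.60, 4.44 and 4.47 before, and fell by 0.68 ± 0.10 (adjusted p = 0.000141). Hhex fell by 2.09 ± 0.32 (adjusted p = 0.000182; -1.26 with normexp and -1.37 in the slide-blocked fit). Eomes fell by 1.28 ± 0.35 (adjusted p = 0.00791), from -1.10, -1.06 and -0.65 to -1.40, -2.05 and -3.19, again lowest on array 3 (slide-blocked -2.25), and 5 of the 7 CD8 and NK markers tested, Eomes included, fell with it. Bcl6 did not pass, at -0.49 ± 0.21 (adjusted p = 0.0593), but was called lower in the slide-blocked fit (-0.87, adjusted p = 0.0233), with normexp (0.0373), with quantile normalization (0.022), in the authors' table (0.022), without Th9 array 2 (0.0253) and without stimulated array 1 (0.00545). Kdm4d did not pass, at 0.24 ± 0.35 (adjusted p = 0.573).

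Of 9 signalling genes 5 fell and Plek rose, where 30.7% of all genes tested fell and 33.2% rose. Tbc1d4 fell by 1.56 ± 0.23 (adjusted p = 0.00014, and -0.998 with normexp) and Sesn3 fell by 1.92 ± 0.24 (adjusted p = 4.22e-05), the latter reading 2.73, 2.99 and 1.80 after stimulation. Pkib read 0.44, 1.08 and -0.02, a difference of 0.43 ± 0.31 that did not pass (adjusted p = 0.251), as was the case for Tbc1d30 and Pls1 (-0.60 ± 0.28 and -0.57 ± 0.33). These calls changed too: Pkib passed as the mean over its probes (0.53, adjusted p = 0.0412), Tbc1d30 as the mean over its probes (-1.04, 0.01) and in a fit of the 6 arrays alone (0.025), and Pls1 in the slide-blocked fit (-1.18, 0.0479) and without Th9 array 3 (-0.93, 0.0191). Of 6 protease inhibitors, enzymes and secreted proteins, Fam3c fell by 0.54 ± 0.10 (adjusted p = 0.000942) and Mgat5 fell by 0.63 ± 0.24 (adjusted p = 0.0408). The Mgat5 call was lost without Th9 array 1 (-0.51), Th9 array 3 (-0.66), stimulated array 2 (-0.63) or stimulated array 3 (-0.34), and under 5 other settings, while the slide-blocked difference was -1.23. Car2 and Prss12 did not pass, at 0.44 ± 0.25 and -0.57 ± 0.31. Prss12 was called lower in the slide-blocked fit (-1.10, adjusted p = 0.0498), with quantile normalization (0.0369), in the authors' table (0.0368) and without stimulated array 2 (0.00982). For all 20 other probes of these genes that were detected, the sign of the stimulation difference was that of the chosen probe. The size differed. Other probes gave -0.79 for Patj (chosen -4.59), -0.18 for Acpp (chosen -3.52) and -0.24 for Foxo1 (chosen -0.68). A further probe of Patj gave -5, and those of Tbc1d4 gave -3.45 and -1.99. B cell markers moved here too, 6 of 10 falling and none rising, and their part in the result was not tested. Early response genes of the T cell receptor marked the stimulation itself, with 23 of 33 tested rising and 3 falling. For both marker lists the shares of all genes tested were 33.2% rising and 30.7% falling.

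**Figure D5:**
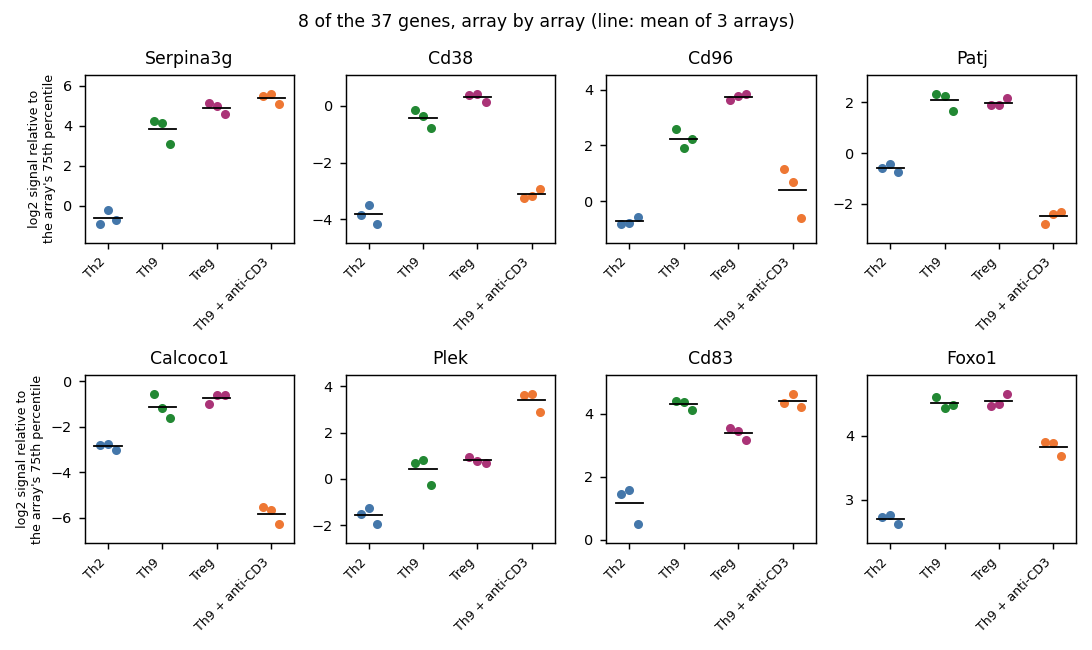
Level (log2 signal relative to the array's 75th percentile) of 8 of the 37 genes on each array, with lines at the mean of 3 arrays. Patj and Calcoco1 fall below their Th2 arrays after anti-CD3, Cd38 and Cd96 return towards them, Foxo1 falls in part, Cd83 did not pass the test and Plek and Serpina3g rise.

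None of the 37 genes was on the lists of TGF-β pathway genes, of which 66 were on the array and 61 were tested. In Th9 against Th2, 14 of the 61 were higher and 10 lower, with a median of 0.27, against 7.78% and 9.29% of all genes and a median of -0.03. In Treg against Th2, which shares the Th2 arrays, 15 were higher and 26 lower, with a median of -0.24, against 33.6% and 29.4% of all genes and a median of 0.08. Blocking on slide left 4 called higher and 0 lower in Th9.

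Among inhibitors and feedback genes of the pathway, 5 of 13 were higher and 1 lower in Th9, and 6 were higher and 4 lower in Treg, with medians of 0.38 and 0.02. The shares of all genes were 7.78% higher and 9.29% lower in Th9, and 33.6% higher and 29.4% lower in Treg. Ldlrad4, which binds SMADs and restrains the pathway, was higher in both, by 3.46 ± 0.29 in Th9 (adjusted p = 4.02e-05) and 0.98 ± 0.29 in Treg (adjusted p = 0.0121). Chosen after their values were seen, Smad7 and Skil, feedback inhibitors induced by the pathway, were the others higher in both. Smad7 read -0.44, -0.70 and -0.74 in Th2, 0.10, 0.06 and -0.19 in Th9 and 0.58, 0.61 and 0.77 in Treg, with differences of 0.62 ± 0.12 and 1.28 ± 0.12 (adjusted p = 0.00744 and 6.52e-06). Skil read 0.44, 0.46 and 0.26 in Th2, 2.02, 1.93 and 1.58 in Th9 and 1.25, 1.57 and 0.87 in Treg, with 1.46 ± 0.18 and 0.84 ± 0.18 (adjusted p = 0.000456 and 0.00183). After blocking on slide, the Th9 differences of all 3 did not pass (adjusted p = 0.0894, 0.322 and 0.102 for Ldlrad4, Smad7 and Skil), nor did the Treg difference of Ldlrad4 (adjusted p = 0.0853).

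Of 9 receptors and co-receptors, 4 were higher and none lower in Th9, and 1 was higher and 4 lower in Treg. Of 12 genes of ligands and their activation, 1 was higher and 2 lower in Th9, and 2 were higher and 5 lower in Treg. Over all genes, 7.78% were higher and 9.29% lower in Th9, and 33.6% higher and 29.4% lower in Treg. Acvr2a, a receptor of activins, differed by 2.40 ± 0.20 in Th9 and -1.06 ± 0.20 in Treg (adjusted p = 3.5e-05 and 0.000744). Acvrl1, the type I receptor ALK1, differed by 2.17 ± 0.45 and -2.60 ± 0.45 (adjusted p = 0.00964 and 0.0005). Tgfb3, a TGF-β ligand gene, read 3.51, 3.25 and 2.27 in Th2, 4.48, 4.56 and 4.02 in Th9 and 0.41, 0.44 and 0.30 in Treg, with differences of 1.34 ± 0.28 and -2.63 ± 0.28 (adjusted p = 0.00918 and 1.34e-05). Treg arrays of these 3 genes lay below Th2 arrays and Th9 arrays above them. Acvrl1 and Tgfb3 did not pass when slide was a block in Th9 (adjusted p = 0.801 and 0.613).

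Target genes known from many cell types were more often lower, 6 of 18 in Th9 and 10 of 18 in Treg, with 3 higher in each. Of all genes, 9.29% were lower in Th9 and 29.4% in Treg, while 7.78% and 33.6% were higher. Cdkn2b, an inhibitor of the cell cycle, was lower in both, at -2.50 ± 0.32 and -3.02 ± 0.32 (adjusted p = 0.000544 and 1.19e-05). Myc, a transcription factor gene of cell growth that TGF-β is known to repress, was lower in both by nearly the same amount, at -1.46 ± 0.15 and -1.45 ± 0.15 (adjusted p = 0.000139 and 1.15e-05). Id3, an inhibitor of E proteins, was lower in Th9 and higher in Treg, at -1.42 ± 0.19 and 4.05 ± 0.19 (adjusted p = 0.000685 and 4.39e-08). Fn1 (fibronectin) was higher in Th9 by 1.22 ± 0.23 (adjusted p = 0.00524) and not well above background on any Treg array. Cdkn2b, Myc and Id3 did not pass in the slide-blocked Th9 comparison (adjusted p = 0.504, 0.203 and 0.0905), while in Treg all 3 did. Among 9 SMADs and partners tested, 1 was higher and 1 lower in Th9, and 3 were higher and 3 lower in Treg. After stimulation of Th9 cells, 20 of the 61 pathway genes rose and 19 fell, where 33.2% of all genes rose and 30.7% fell.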

How the data were processed

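RNA of 12 CD4+ T cell samples (4 groups of 3) was hybridised to one-colour Agilent mouse arrays with 60-base probes, which lay on 3 slides. The deposited scanner output holds spot intensity. Per the file headers it comes from Feature Extraction software (Agilent, version 10.5.1.1), which corrected background, and the array design was annotated on mm8. The deposited value table holds log2 values by the authors; how it was normalized is not given in the sources used here, its array medians were 5.171 to 5.174, 83 values were missing, and its columns correlated with the log2 scanner intensity of the same array at 0.9996 or more. The rule that chose the genes was applied to this table. Members and gene lists were chosen with earlier results of these data known.

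For all other values, control spots and outlier spots (60 to 94 per array) were left out, the spots of a probe were averaged, and log2 of the processed intensity minus the 75th percentile of its array was taken as the level. A gene was tested when its brightest probe was well above background on at least 3 of 12 arrays, which left 17933 genes. limma 3.58.1 in R 4.3.3 was fitted over all 12 arrays (8 residual degrees of freedom), so the groups share one estimate of the spread. Adjusted p-values are Benjamini-Hochberg over all genes tested, with a threshold of 0.05. The fit was tested on simulated data. The number of arrays limits the precision.

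Genes given with values per array were the 12 with the largest smaller difference from Th2 and any on a gene list. Added to them were the 6 largest increases and decreases after stimulation among called genes. Up to 4 each with stimulated arrays above or below all others were also given. Outside this rule, values per array are shown for Cd83, Csf2rb2 and A_51_P144143, and for Foxo1 and Sesn3 around stimulation. Other members of the 37 are given more briefly. Pathway genes were named when called in both comparisons with Th2, up to 8 by the smaller difference. Symbols were updated through RefSeq accessions or older symbols where these matched, for 35 of the 37. Promoter sequences are from RefSeq (GRCm38.p6), and probe sequences from the scanner files. Same-numbered Th9 and Th2 arrays deviated together from their group means (r = 0.20, 0.18 and 0.41 over genes), a pairing seen in the data and not stated in the labels. Alternatives covered background correction, normalization, the filter, the probe per gene, the slide, the replicate number and each array left out.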

Additional observations from a re-analysis of the deposited data

How the results depend on the processing

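Of the 25 genes called after stimulation, 21 kept their call and direction under all 16 alternatives; Aqp3, Lrig1, Cd40 and Mgat5 lost the call under at least 1, and no gene reversed. Of the 12 not called, Bcl6, Prss12, Pls1, Tbc1d30 and Pkib were called under at least 1. The 37 genes held 4 called higher and 19 to 22 called lower when each array was left out, against 4 and 21. With the slide as a fixed block they held 3 and 22. The Th9 minus Th2 comparison of all genes depended most on the setting: 1396 genes were called higher and 1665 lower, but 188 and 132 with the slide as a fixed block, where it rests on single linking arrays, and 849 to 1270 and 897 to 1510 when each array was left out (849 without Th9 array 2, 897 without Th2 array 2). A threshold of 2 in place of 1.5 chose 20 genes, no floor chose 37, and leaving out each array chose 34 to 43. With the replicate block, the Th9 minus Th2 comparison called 1404 genes higher and 1686 lower, with 6037 and 5610 called after stimulation (4 and 21 of the 37), and 6071 and 5306 in Treg, so the block changed no call count by over 1.5 times. Same-numbered stimulated and unstimulated arrays had deviations correlated at 0.21, 0.11 and 0.10, and Treg and Th2 arrays at 0.03, 0.02 and -0.01. Normexp background correction moved the median stimulation difference of all genes from 0.02 to 0.12. Dim probes such as those of Art4, Abcb1a and Baiap3 after stimulation allow only bounds.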
